A study of Mus musculus with 4 samples.

Results

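The promoters of 8 genes of deep-layer cortical neurons, Fezf2, Bcl11b, Tle4, Sox5, Zfpm2, Etv1, Ldb2 and Crym, were examined for trimethylation of lysine 4 on histone H3 (H3K4me3) among 21938 protein-coding genes. The genes were taken by name, as known genes of these neurons, and with earlier results of these data already seen. H3K4me3 had been mapped by ChIP-seq, the sequencing of DNA that an antibody against the mark pulls down with chromatin, in left cerebral cortex from adult female mice at 2 months of age. The mice were B6CASTF1/J, an F1 hybrid of the C57BL/6J and CAST/EiJ strains, and the labels named no treatment, transgene or mutation. Of the 4 libraries, 2 were technical replicates of pool J (biological replicate 1) and 2 of pool I (biological replicate 2), and each pool joined 4 biosamples under 1 shared donor record. Whether different animals went into the 2 pools is not stated in the labels, and differences between them may therefore be technical. A gene was called marked where a peak lay within 1000 bases of any of its annotated transcript starts, peaks up to 1000 bases apart were joined into a domain, and the widest domain was taken for each gene.

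H3K4me3 is deposited at the starts of transcribed genes, most readily where CpG dinucleotides are dense, and in neurons unusually wide domains of it are known at genes of cell identity. Neurons of the deep cortical layers send their axons out of the cortex: those of layer V to the brainstem and spinal cord and across the midline, those of layer VI mainly to the thalamus, and the subplate lies beneath them. Fezf2 and Bcl11b are transcription factors of the layer V subcerebral programme, Sox5 orders the birth of deep-layer neuron types, Tle4 and Zfpm2 mark corticothalamic neurons, and Etv1, Ldb2 and Crym are expressed in layer V.

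The 4 deposited peak lists were those of pool J with 21573 peaks, of pool I with 24508, of the pooled reads with 26286, and a replicated list with 25446 that rests on both pools. Each pool gave 1 list, so no test between pools was possible, and the read depth behind a list was unknown. The tissue held many cell types, and a domain in few cells with much of the mark cannot be told apart from one in many cells with little. Of 7 markers of cortical excitatory neurons, 7 were marked in the replicated list and 6 lay among the widest 5% of domains. Of 7 interneuron markers 6 were marked, with peak enrichments of 3.03 to 8.75, and Vip had no promoter peak in any list. Of 7 striatal markers 7 were marked, although Drd2 had no promoter peak in either pool list. Of 7 T-cell markers 1 was marked, Lck. Of 5 astrocyte markers 4 were marked, with enrichments of 4.36 to 17.7 in their widest domains. Of 5 oligodendrocyte markers 4 were marked, with 3.03 to 3.74 in their widest domains. Mbp had 2 promoter domains in the replicated list, and its widest domain had an enrichment of 20.5 in pool J against 4.56 in pool I. Over all protein-coding genes the marked share was 65.2%.

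All 8 genes were marked in the replicated list and in each pool. The share of all protein-coding genes that were marked was 65.2% by the replicated list, 63.9% by the list of pool J and 64.8% by that of pool I. By extent most of the 8 lay above the typical marked gene, and by enrichment they lay on both sides of it. The median extent in the replicated list, from the first to the last base of a domain, was 5401 bases over the 8 genes and 2124 over the 14293 marked genes, and 7 of the 8 exceeded the latter. The median of the authors' enrichment value, the fold over control of the highest peak in the domain, was 12.2 over the 8 genes and 20.6 over all marked genes, and 5 of the 8 lay below the latter and Etv1, Tle4 and Zfpm2 above it. Sox5, Fezf2, Bcl11b and Etv1, 4 of the 8, were among the widest 5% of marked genes in the replicated list (background 5.0%), whose limit was 5166.4 bases. Just outside it lay Tle4 with 4782 bases and Zfpm2 with 4584. In pool J the limit was 4744.7 bases and Tle4 passed it with 4763 while Etv1 did not. In pool I the limit was 5301.9 bases, 5 of the 8 passed it, and Ldb2 lay just under it with 5235.

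**Figure D1:**
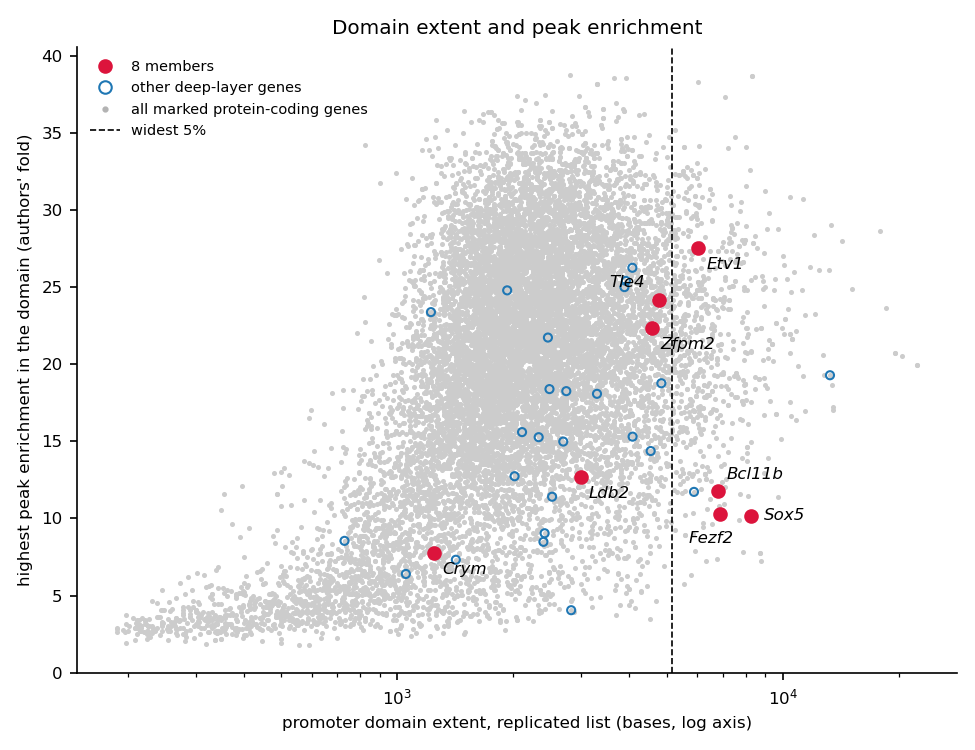
Promoter domain extent (bases, log axis) against the highest peak enrichment in the domain (authors' fold over control) for all marked protein-coding genes (grey), 25 other deep-layer genes (blue rings) and the 8 genes (red) in the replicated list; the dashed line is the limit of the widest 5%. Sox5, Fezf2 and Bcl11b lie far to the right at enrichments of 10.2 to 11.8, Etv1 lies right and high at 27.6, and Crym lies low on both axes.

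Ordered by mean extent over the 2 pools, Sox5 stood first with 8502.5 ± 387 bases (SD, n = 2 pools), then Bcl11b with 7350 ± 1615 and Fezf2 with 6506 ± 663. Etv1 followed with 5234 ± 1998, Tle4 with 5076 ± 443 and Zfpm2 with 4510 ± 201. Ldb2 had 3961.5 ± 1801 and Crym 1269 ± 18.4. Neighbours in this order overlapped in their values over the pools in 5 of 7 cases, the exceptions being Tle4 above Zfpm2 and Ldb2 above Crym. The order by enrichment was another. Etv1 (26.7 ± 1.27, SD, n = 2 pools), Tle4 (24.9 ± 1.86) and Zfpm2 (21.6 ± 0.132) were above 21 in each pool, while the other 5 genes ranged from 8.36 to 18.0.

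The DNA just upstream of the starts differed strongly among the genes. The 8 windows shown are each 200 bases on the reference genome (C57BL/6J, RefSeq GRCm38.p6, the mm10 build), end 1 base before a transcript start, read 5′ to 3′ along the gene's strand, overlap no annotated exon, and have CpG dinucleotides in capitals. Tle4 and the marked start of Zfpm2 have the most CpGs of the 8 windows, 14 and 17. Zfpm2 and Sox5 are each shown with an unmarked start beside the marked ones, and Ldb2 and Crym are shown as marked starts poor in CpG. The windows lie at chr19:14598052-14598251 (minus strand) for Tle4, chr15:40654835-40655034 and chr15:40664790-40664989 (plus) for Zfpm2, chr6:144781978-144782177, chr6:144209569-144209768 and chr6:143947107-143947306 (minus) for Sox5, chr5:44799681-44799880 (minus) for Ldb2 and chr7:120202112-120202311 (minus) for Crym.
Tle4, marked: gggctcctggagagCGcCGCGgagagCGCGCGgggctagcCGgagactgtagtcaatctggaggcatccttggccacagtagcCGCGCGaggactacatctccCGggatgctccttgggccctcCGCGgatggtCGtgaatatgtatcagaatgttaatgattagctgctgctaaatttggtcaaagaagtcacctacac
Zfpm2, marked: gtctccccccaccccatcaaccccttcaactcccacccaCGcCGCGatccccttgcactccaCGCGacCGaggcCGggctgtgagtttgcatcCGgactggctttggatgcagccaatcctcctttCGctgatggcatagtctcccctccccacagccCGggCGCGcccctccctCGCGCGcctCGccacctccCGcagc
Zfpm2, internal and unmarked: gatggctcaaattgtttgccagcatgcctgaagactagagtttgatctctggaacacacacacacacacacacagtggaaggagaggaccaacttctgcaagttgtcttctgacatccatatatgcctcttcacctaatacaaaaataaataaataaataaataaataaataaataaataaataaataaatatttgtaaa
Sox5, 5′-most and marked: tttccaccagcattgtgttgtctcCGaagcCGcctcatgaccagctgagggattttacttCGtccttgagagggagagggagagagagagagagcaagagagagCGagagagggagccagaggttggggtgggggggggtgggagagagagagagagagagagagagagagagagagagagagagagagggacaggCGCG
Sox5, internal and marked: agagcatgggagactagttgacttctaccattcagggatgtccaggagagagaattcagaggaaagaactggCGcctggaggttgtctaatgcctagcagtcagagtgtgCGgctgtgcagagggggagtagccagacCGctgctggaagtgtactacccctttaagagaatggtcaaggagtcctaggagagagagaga
Sox5, internal and unmarked: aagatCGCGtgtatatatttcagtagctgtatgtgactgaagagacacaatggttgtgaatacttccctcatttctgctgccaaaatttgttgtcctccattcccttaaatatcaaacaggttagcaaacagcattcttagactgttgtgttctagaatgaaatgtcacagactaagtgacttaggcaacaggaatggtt
Ldb2, marked: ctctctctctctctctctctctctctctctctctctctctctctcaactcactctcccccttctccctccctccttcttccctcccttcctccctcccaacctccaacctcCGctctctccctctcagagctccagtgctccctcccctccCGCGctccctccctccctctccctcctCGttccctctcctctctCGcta
Crym, marked: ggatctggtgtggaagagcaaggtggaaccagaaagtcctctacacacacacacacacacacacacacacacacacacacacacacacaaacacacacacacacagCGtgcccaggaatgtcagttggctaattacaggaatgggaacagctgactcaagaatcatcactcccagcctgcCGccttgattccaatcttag
The 3 Sox5 windows held 6, 3 and 2 CpGs in the order shown, the unmarked Zfpm2 window 0, Ldb2 5 and Crym 2. Over all protein-coding genes a window of this length held a median of 16 CpGs at marked and 2 at unmarked genes. Those windows were placed at the start nearest the highest point of the widest domain, and at the 5′-most start in unmarked genes. Placed so, the window held 8 CpGs at Zfpm2 and 1 at Sox5, so the windows shown are not placed alike with those of all genes. Core promoter motifs were searched for on both strands. CCAAT occurred in the marked Zfpm2 window and in that of Crym, and among the windows of all 21938 genes it was present in 29.4%. The motif of the TATA-binding protein, written here as TATAAA, was in none of the 8 windows and in 8.46% of all windows. The motif bound by Sp-family factors, GGGCGG, was in none of the 8 windows and in 42.6% of all windows. No window of Fezf2, Bcl11b or Etv1 is shown. Among windows not shown, CCAAT occurred at Etv1 and another internal Sox5 start, TATAAA at an unmarked Etv1 start and GGGCGG at Bcl11b. At the starts used for all genes, CCAAT lay upstream of Sox5 and Crym alone of the 8 genes, GGGCGG of Fezf2 alone and TATAAA of none.

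Among the specification genes, Fezf2 (ENSMUSG00000021743.6), the zinc-finger factor that directs neurons to the corticospinal fate, carried a domain at chr14:12340383-12347262 (mm10) that spanned 6975 bases in pool J, 6037 in pool I and 6880 in the replicated list. The gene itself is 6096 bases long, and the domain covered 84.8% of it. Exons made up 43.7% of the domain, introns 31.4%, and the remaining 24.9% ran beyond the 3′ end. The domain joined 4 peaks in the replicated list and in pool J against 3 in pool I, where the peak farthest past the gene's end was not called. Enrichment was 9.90 in pool J against 10.2 in pool I, and the percentile among marked genes was 98.3 for extent but 14.2 for enrichment. The highest point lay 682 bases downstream of the nearest start. The 5′-most of its 3 starts lay outside the domain, 927 bases from the nearest peak in the replicated list and 838 in pool J, inside the limit of 1000, and 1081 in pool I, just outside it.

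Bcl11b (ENSMUSG00000048251.15), a zinc-finger factor required for corticospinal axon growth that is also expressed in striatal neurons and T cells, had its domain at chr12:107997667-108004463 over the first exon and mainly the first part of the gene, 79.7% of it intronic. It spanned 6208 bases in pool J, 8492 in pool I and 6797 in the replicated list. The extra extent in pool I came from a pair of small upstream peaks, of 248 and 563 bases, that pool J lacked, and its bases covered by peaks were 5761 in pool J against 6166 in pool I. Enrichment was 11.3 in pool J against 13.9 in pool I. The striatal markers marked in both pools had a median extent ratio of pool I to pool J of 1.19, with Drd1 at 1350 bases in pool J against 6862 in pool I, and 6 of 7 T-cell markers had no peak in any pool list; the part of striatal tissue in the Bcl11b difference was not tested.

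**Figure D2:**
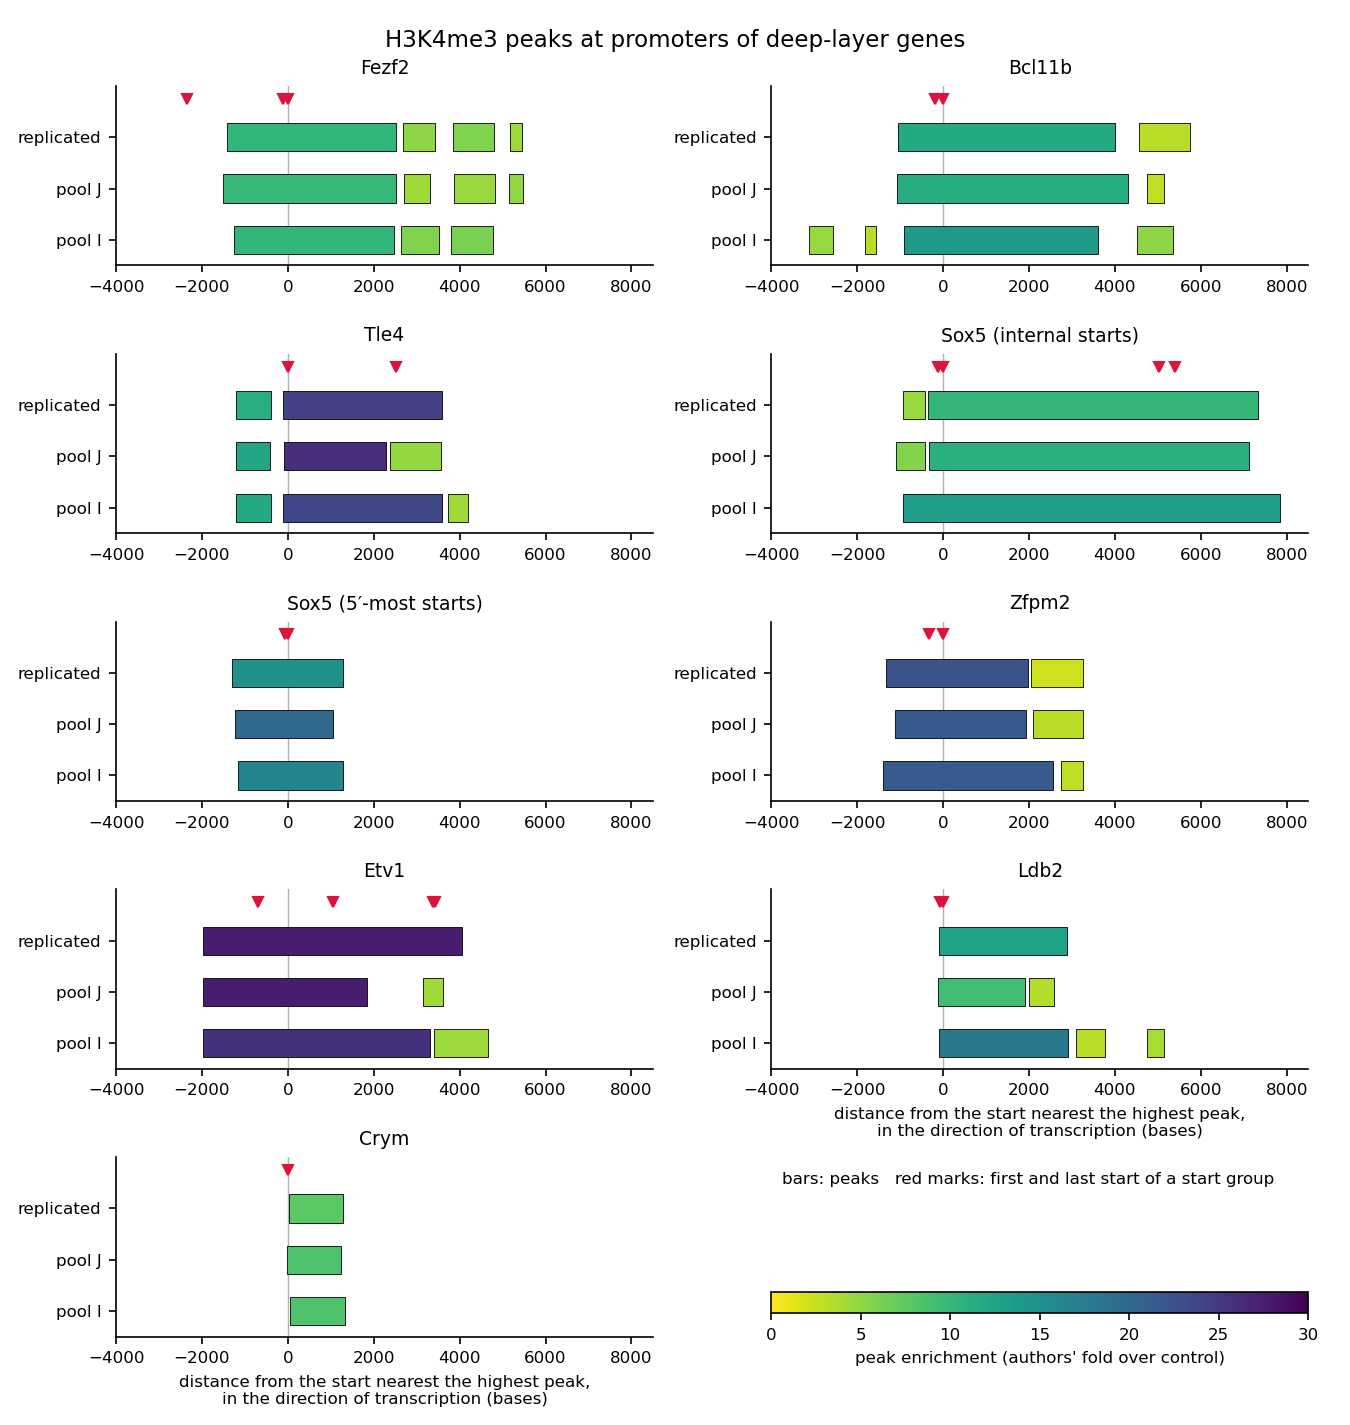
Peaks of the 8 genes in the replicated list, pool J and pool I, drawn by distance in bases from the start nearest the highest peak of the replicated domain, with transcription to the right; bars are peaks coloured by enrichment (authors' fold over control) and red marks are the first and last start of each start group within the panel. The panels show the break in Etv1 in pool J, the added downstream peaks of Ldb2 and upstream peaks of Bcl11b in pool I, and the single short peak of Crym.

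Among the genes of layer VI and the subplate, Sox5 (ENSMUSG00000041540.16), a SoxD-family factor, had the widest domain of the 8 genes, and it did not lie at the gene's beginning. It stood at chr6:144202118-144210383, wholly inside the gene and 89.5% intronic, over 6 internal starts, and spanned 8229 bases in pool J, 8776 in pool I and 8266 in the replicated list, percentile 99.3 of marked genes. A separate domain covered the 5′-most starts at chr6:144780638-144783215 with 2277 bases in pool J against 2439 in pool I. The wide internal domain was the less enriched, at 10.9 in pool J against 13.3 in pool I, against 20.0 and 16.5 at the 5′-most starts. Sox5 was the 1 gene of the 8 with more than 1 promoter domain in the replicated list, a feature of 9.45% of marked genes. Taken at its 5′-most start alone, Sox5 left the widest 5% with 2578 bases in the replicated list.

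Tle4 (ENSMUSG00000024642.17), a Groucho-family co-repressor and marker of corticothalamic neurons, had a domain at chr19:14594472-14599253 of 4763 bases in pool J, 5389 in pool I and 4782 in the replicated list. A short upstream peak of 787 to 799 bases stood apart from the main peak in each list. Enrichment was 26.2 in pool J against 23.6 in pool I, and the added length in pool I was a downstream peak of 460 bases with an enrichment of 4.26. Zfpm2 (ENSMUSG00000022306.9), which encodes a cofactor of GATA factors, had 4368 bases in pool J, 4652 in pool I and 4584 in the replicated list at chr15:40654029-40658612. Its enrichment was 21.7 in pool J against 21.5 in pool I, the highest points of both pools lay 1 base apart, and extent and enrichment stood at percentiles 92.5 and 58.9. The replicated domain of Zfpm2 included a weak downstream peak of 1217 bases with an enrichment of 2.27. Without merging, or with −log10 q of at least 5, it spanned 3290 bases.

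Among the layer V genes, Etv1 (ENSMUSG00000004151.17), an ETS-family factor, was both wide and high, at percentiles 97.1 for extent and 83.4 for enrichment. Its domain at chr12:38778115-38784134 held 11 of the 13 annotated starts and spanned 3821 bases in pool J, 6647 in pool I and 6020 in the replicated list. In pool J a gap split off a separate peak of 471 bases with an enrichment of 4.27 at the second group of starts. Enrichment was close in the pools, at 27.6 in pool J against 25.8 in pool I.

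Ldb2 (ENSMUSG00000039706.11), a cofactor that binds LIM-domain proteins, had the highest ratio of extents between pools among the 8 genes, although in bases Etv1 differed more. Its domain at chr5:44796713-44799700 spanned 2688 bases in pool J, 5235 in pool I and 2988 in the replicated list, and its enrichment was 9.21 in pool J against 18.0 in pool I. In the list from the pooled reads it spanned 5148 bases, since that list and pool I both held a pair of weak downstream peaks. The domain began at the start and ran downstream, with 98 bases upstream and 2889 downstream in the replicated list.

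Crym (ENSMUSG00000030905.5), which encodes mu-crystallin, a thyroid hormone-binding protein, had the smallest domain of the 8 genes, a single peak at chr7:120200833-120202074 of 1256 bases in pool J, 1282 in pool I and 1242 in the replicated list. Enrichment was 8.46 in pool J against 8.36 in pool I. It stood at percentile 14.8 for extent and 10.01 for enrichment. The peak began 37 bases downstream of the 1 annotated start in the replicated list and 40 in pool I, and it covered the start in pool J.

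Domains were wider in pool I for 7 of the 8 genes, a direction shared by 76.6% of the 13961 genes marked in both pools. The median ratio of extents, pool I to pool J, was 1.10 over the 8 genes and 1.07 over all. Ldb2, at 1.95, and Etv1, at 1.74, were at least 1.5 times as wide in pool I, 2 of 8 genes where the background was 4.24%. None was so in pool J, where the background was 0.552%, and Fezf2, at 0.866, was the 1 gene of the 8 wider there. The pool I list also held more peaks than that of pool J, and the part of depth in these differences was not tested. Extent and enrichment did not move together in every gene. The ratio of enrichments was 1.96 at Ldb2, 1.23 at Bcl11b and 1.22 at Sox5, all wider in pool I. Etv1 had 0.935 and Tle4 0.899 while both were wider in pool I. Zfpm2 with 0.991, Crym with 0.989 and Fezf2 with 1.03 lay near 1.

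**Figure D3:**
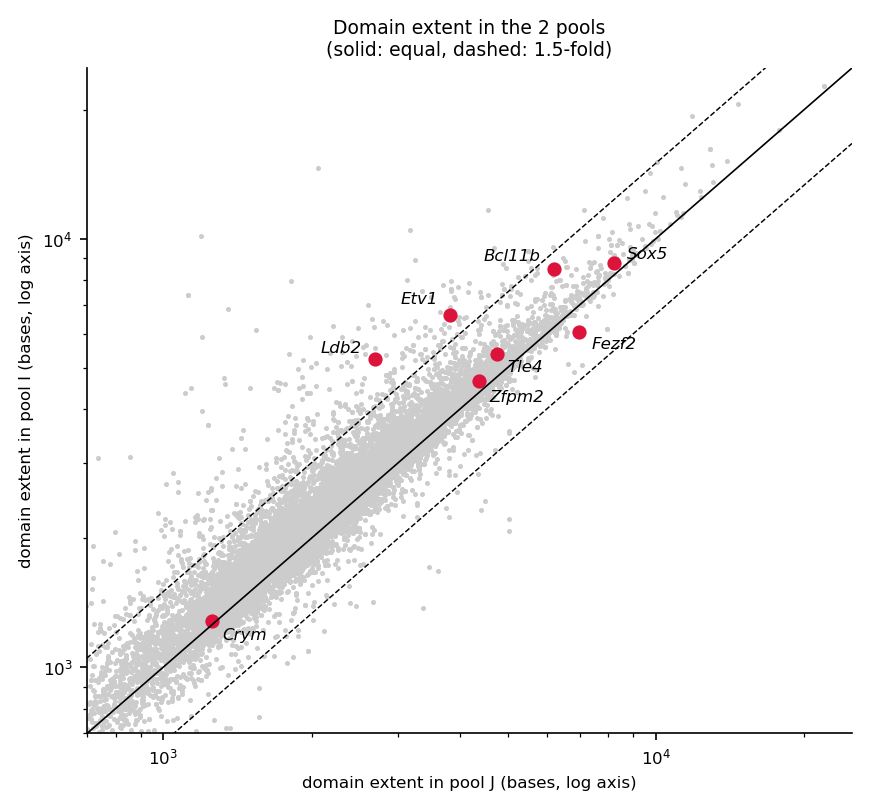
Promoter domain extent in pool J against pool I (bases, both axes log) for all genes marked in both pools (grey) and the 8 genes (red), with lines of equal extent (solid) and of a 1.5-fold difference (dashed). Ldb2 and Etv1 lie above the upper dashed line and Fezf2 is the 1 red point below the solid line.

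The pools shared most of the bases under the peaks of these domains. Shared bases made up a median of 85.2% of the bases covered in either pool, beside 88.8% over all genes with overlapping domains, and ranged from 62.7% at Ldb2 and 63.2% at Etv1 to 90.0% at Crym. Edges moved more on the downstream side, by a median of 657 bases against 113.5 upstream, and the downstream shift was the larger in 6 of the 8 genes. Over the 13844 genes whose widest domains overlapped between the pools, the median shift was 115 bases downstream and 64 upstream, and the downstream shift was the larger in 63.4%. At Etv1, without its separate peak in pool J, the downstream edge lay 2817 bases farther out in pool I and at Ldb2 2566. Bcl11b was the reverse, with an upstream edge 2063 bases farther out in pool I.

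In the replicated list all 8 domains reached farther downstream of the start nearest their highest point than upstream, as did 76.3% of all marked genes. The median reach was 3815.5 bases downstream and 1125.5 upstream over the 8 genes, and 1212 and 746 over all marked genes. Etv1, Ldb2 and Crym, 3 of the 8 genes, had a domain of a single peak, against 80.3% of all marked genes. In the other 5 genes the domains joined 2 to 4 peaks.

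The 43 annotated starts of the 8 genes fell into 19 groups, of which 13 were marked and 6 were not in the replicated list. The unmarked groups belonged to Sox5, Zfpm2, Etv1 and Ldb2, and all lay inside the gene. The observed-to-expected CpG ratio in 2001 bases centred on the start had a median of 0.392 in the marked groups and 0.233 in the unmarked ones. The ranges overlapped, since a marked Etv1 group had 0.154 and an unmarked Sox5 group 0.335. Neighbouring groups of 1 gene and 1 domain share sequence and peaks, so these are not independent points. Within Sox5 the 5′-most starts had a ratio of 0.635, while the internal group under the wide domain, at 0.332, and the unmarked group, at 0.335, differed little. The nearest peak to that unmarked Sox5 group was 20750 bases away in the replicated list, 20848 in pool I and 233830 in pool J.

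**Figure D4:**
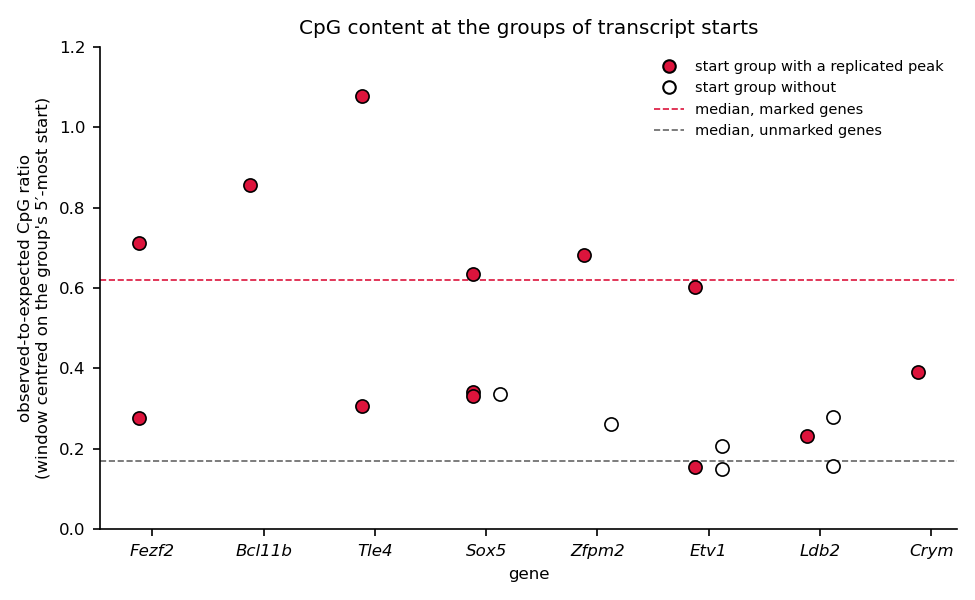
Observed-to-expected CpG ratio in 2001 bases around each group of transcript starts of the 8 genes; red points are groups with a peak within 1000 bases in the replicated list, open points are groups without one, and dashed lines are the medians of marked (0.620) and unmarked (0.168) protein-coding genes. Tle4 and Bcl11b lie highest, and 5 of the 13 marked groups, in Fezf2, Tle4, Sox5, Etv1 and Ldb2, lie within the range of the open points.

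At the start nearest the highest point of the widest domain, the CpG ratio was 1.08 at Tle4, 0.854 at Bcl11b, 0.725 at Fezf2, 0.670 at Zfpm2 and 0.590 at Etv1. It was 0.392 at Crym, 0.338 at the internal starts of Sox5 and 0.228 at Ldb2, percentile 1.94 of marked genes. The median over the 8 genes was 0.630, beside 0.620 over all marked genes and 0.168 over unmarked ones. The 3 genes with the lowest ratios stood at both ends of the order by mean extent: Sox5 had the widest domain, and Ldb2 and Crym had the narrowest, below the 5 genes with higher ratios. In pool I alone Ldb2, with 5235 bases, was wider than Zfpm2 with 4652.

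Away from promoters, 13 peaks of the replicated list lay inside 4 of the genes, 7 in Bcl11b, 4 in Sox5 and 1 each in Zfpm2 and Etv1. Of all protein-coding genes, 8.98% held a replicated peak over 1000 bases from any annotated start. The 4 genes with such peaks are 91105 to 953553 bases long and the 4 without 6096 to 327549, and gene length was not taken into account. None of the 13 peaks overlapped an exon of its gene. The 13 peaks were short, at 189 to 1014 bases, and weak, with enrichments of 2.54 to 7.63 and a median of 3.92. Of the 13, 7 met a peak in both pools, 5 in pool I alone, 0 in pool J alone and 1 in neither. Over the 2784 replicated peaks inside protein-coding genes and over 1000 bases from any annotated start, as all 13 were, 51.8% met a peak in both pools, 24.5% in pool I alone, 5.10% in pool J alone and 18.6% in neither, and the median enrichment was 3.71. The strongest was in Bcl11b at chr12:107952211-107953194, with an enrichment of 6.39 in pool J against 8.93 in pool I. The peak inside Zfpm2, at chr15:40978605-40979584, had nearly the same enrichment in the pools, 7.35 in pool J against 7.44 in pool I. Fezf2, Tle4, Ldb2 and Crym had no such peak in any list.

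A list of 26 further deep-layer genes had domains of more ordinary extent. Of these, 25 were marked in the replicated list and 2 were among the widest 5%, with a median extent of 2521 bases and a median enrichment of 15.3. Its widest were Tbr1, the T-box factor of layer VI, with 13246 bases (11445 in pool J, 13407 in pool I), Hs3st4 with 5882 and Pou3f1 with 4840. Its narrowest were Moxd1 with 730 bases, Nxph4 with 1053 and Diaph3 with 1223. Cplx3, a marker of the subplate, had a peak in pool I alone, of 242 bases and an enrichment of 3.42. Hs3st4 was the 1 gene of this list at least 1.5 times as wide in 1 pool, with 3859 bases in pool J against 5823 in pool I. For 8 upper-layer genes the median was 7375.5 bases and 7 were among the widest 5%, from Cux2 with 4298 bases to Pou3f3 with 20385. These counts describe the lists and carry no test.

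**Figure D5:**
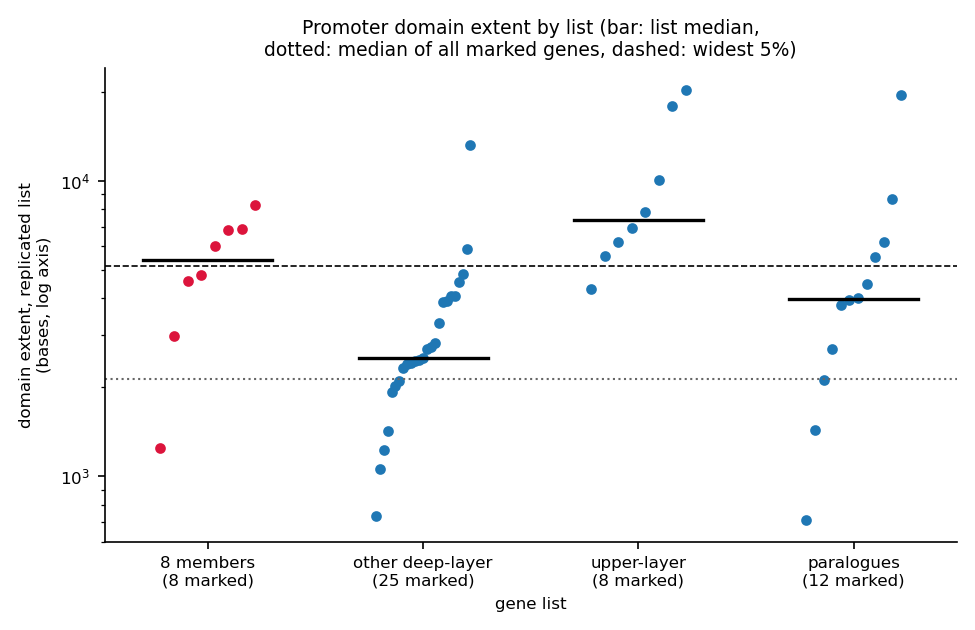
Promoter domain extent in the replicated list (bases, log axis) for the marked genes of 4 lists; points are genes, bars are list medians, and the lines mark the median of all marked genes (2124 bases, dotted) and the limit of the widest 5% (5166.4 bases, dashed). The 8 genes lie between the other deep-layer genes and the upper-layer genes in median extent.

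The 13 paralogues listed, for each of the 8 genes but Crym, varied widely in domain extent. Fezf1, the close relative of Fezf2, had no promoter peak in any of the 4 lists. Bcl11a, the relative of Bcl11b and likewise a zinc-finger factor of cortical neurons, had 19472 bases (12869 in pool J against 16168 in pool I). In the Groucho family Tle3 had 6209 bases, Tle1 5516, Aes 3997, Tle2 1432 and Tle6 709, so that Tle4 fell between Tle1 and Aes. Aes was also far apart between pools, with 2537 bases in pool J against 5573 in pool I. Ldb1, which encodes the broadly expressed relative of Ldb2, had 8654 bases in pool J against 8611 in pool I. The SoxD relatives Sox6 and Sox13 had 4460 and 2686 bases, below the internal domain of Sox5. Zfpm1 had 3950 bases, and Etv5 and Etv4 had 3802 and 2116, all below their relatives Zfpm2 and Etv1. In all, 12 of the 13 paralogues were marked and 4 were among the widest 5%.

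By the 4 values of extent and enrichment in the 2 pools, each as a standardised log2, the gene nearest to Fezf2 was Gfra2 and the gene nearest to Bcl11b was Pitpnm2, out of 13953 genes. Tle4 lay nearest to Wnk1, Sox5 to Sall1 and Zfpm2 to Galnt18. Etv1 lay nearest to Trps1, Ldb2 to Gria1 and Crym to Fbxo46. The closest pairing was that of Crym, at a distance of 0.102, where Fbxo46 had 1210 bases in pool J against 1236 in pool I. Ldb2 had the most distant nearest gene of the 8, at 0.555, and Gria1, with 3399 bases in pool J against 5945 in pool I, was likewise wider in pool I.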

How the data were processed

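Peaks of H3K4me3 ChIP-seq were used as the authors deposited them, in 4 lists on the mm10 build, per the text files deposited with the libraries: pool J alone, pool I alone, the reads of both pools together, and a replicated list. Of the 25446 replicated peaks, 24595 were identical in position, name and enrichment to a peak of the pooled-reads list, so these lists are not independent. Not given in the sources used here were the aligner, the peak caller, its settings and the read numbers. The depth and the precision it gives are therefore unknown. The authors' enrichment of a peak was read as a ratio, the fold over control, because the deposited text files name such tracks. It was used to describe and rank peaks within a list. The deposited −log10 q values served as filters in alternatives. Peak positions are the authors', counted here from 1.

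Gene models were GENCODE release M21 on mm10, with 132721 transcript starts of which those of 21938 protein-coding genes outside the mitochondrial genome were used. Domains were built with Python 3.11.15, pandas 2.3.3 and numpy 2.4.6 as described above, and the procedure was tested on simulated data. Sequences were read with pysam 0.24.0 and samtools 1.23.1. The widest 5% were defined within each list. A percentile is the position of a gene among the marked protein-coding genes of the same list.

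The 8 genes and all gene lists were chosen with earlier results of these data known, so counts and medians are descriptions set beside those of all protein-coding genes, and no test was made. With 1 list per pool, pool values are given as mean ± SD over 2 pools. Genes named were the 8, every paralogue, the 3 widest and 3 narrowest further deep-layer genes with those unmarked or at least 1.5 times as wide in 1 pool, the widest and narrowest upper-layer gene, and for each of the 8 the nearest gene over 4 values. The marker genes named were chosen after their values were seen. Alternatives concerned the window, the starts used, merging, the q filter, the list and the measure of extent. Sequence upstream of starts that overlap an exon was not printed.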

Additional observations from a re-analysis of the deposited data

Results flagged for a closer look

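At Ldb2, an internal transcript start carried a peak in the list from the pooled reads, with an enrichment of 2.60 over 227 bases. That list served in alternatives and in the search for genes with no peak, and the peak at this start entered no comparison. Neither pool list nor the replicated list held a peak within 1000 bases of that start, where the nearest one lay 202834 bases away in the replicated list. No control list was at hand for this start, and the cause of the peak was not tested.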

How the results depend on the processing

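All 8 genes were marked under each of 10 alternatives, and between 3 and 5 of them were among the widest 5%. The median extent of 5401 bases became 3817.5 without merging of neighbouring peaks, and lay between 4565.5 (pool J alone) and 5713 (pool I alone) when 1 pool was left out. The median enrichment of 12.2 ranged from 11.1 in pool J alone to 16.0 in pool I alone. The median ratio of extents between the pools, 1.10, was 1.13 with the 5′-most start alone, 1.23 without merging, 1.07 with merging up to 2500 bases, 1.15 and 1.33 with −log10 q of at least 5 and 10, and 1.07 by covered bases; it stayed above 1 under each, and the cause of these shifts was not tested. Of 96 values of single genes under alternatives, 74 moved by less than the SD between pools. Those that moved by over 1.5 times were Fezf2 without merging (3935 bases), Sox5 at its 5′-most start, and also, in an alternative chosen after seeing the data, at its domain of highest enrichment (2578), Etv1 in pool J alone (3821), and Ldb2 in pool I alone (5235) and in the pooled-reads list (5148). Lists of 1 pool and of pooled reads give no ratio between pools, and covered bases give no enrichment. No paired analysis was possible because the 2 libraries of a pool share 1 list of peaks and no values per library were used. With 2 pools, an unknown depth and no stated peak caller, differences in extent between pools carry no test.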
